A study of Arabidopsis thaliana with 124 samples.

Results

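The calcium-dependent protein kinases (CPKs) of Arabidopsis thaliana are a family of 34 genes, CPK1 to CPK34, and the binding of 21 transcription factors at these genes was described here with and without abscisic acid (ABA), a hormone of drought responses. The members were all genes whose standard name is CPK and a number, and they make up 34 of the 27444 protein-coding genes on chromosomes 1 to 5. A factor was counted at a gene when the summit (the highest point) of any of its ChIP-seq peaks lay in the gene or within 2000 bp of it, with the lists for ABA and for ethanol (EtOH, the mock treatment) kept apart. No measured value entered the choice of the members.

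Each library came from whole seedlings of the accession Col-0 in which 1 factor was tagged with the fluorescent protein YPet by recombineering, which places the tag in a cloned copy of the factor's own genomic region. Seedlings kept 3 days in darkness received 10 µM ABA, or ethanol as the mock, for 4 h, and chromatin was precipitated with an antibody against GFP. Of the factors, 5 were bZIP proteins (GBF2, GBF3, ABF1, ABF3, ABF4), which bind ABA-responsive elements or G-boxes, and 4 were homeodomain-leucine zipper (HD-ZIP) proteins (HAT22, HB5, HB6, HB7). The NAC family was represented by RD26, ANAC032 and ANAC102, the MYB family by MYB44, MYB3 and the MYB-related AT5G04760, and the NF-Y complex by its subunits NFYC2 and NFYB2. Single factors of other families were FBH3 (bHLH), ZAT6 (zinc finger), HSFA6A (heat shock factor) and DREB2A (AP2/ERF). There were 122 tagged libraries, 3 per treatment for 19 factors and 2 per treatment for ANAC102 and ZAT6, and 2 control libraries of untagged Col-0, both labelled as treated with ABA and not analysed by themselves. The 42 peak lists each combine all replicates of a factor in a treatment, so a gene has a yes or no per factor and treatment and no replicate error. Whether replicates came from separate cultures is not given, and the lists hold no read counts, so the depth behind a list is unknown. The lists hold 15 to 18096 peaks, and for 19 of the 21 factors the ABA list is the longer one.

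CPKs join a protein kinase domain to a calcium-binding domain with EF hands. A junction between these domains blocks the active site, and calcium binding releases it, so that a single protein both senses the calcium signal and phosphorylates targets. In plants they are known for their part in ABA responses, for the control of ion channels in guard cells during stomatal closure, and for the oxidative burst in defence. The known sequence groups of the family are called subgroups I to IV.

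Most CPK genes, like most genes, lay within reach of at least 1 of the 21 factors. Most were reached by more factors under ABA than under EtOH, as were most genes. Of the 34 genes, 32 had a summit of at least 1 factor under ABA and 31 under EtOH, where 87.3% and 82.1% of all protein-coding genes did. The median gene of the family had 10 factors under ABA and 6 under EtOH, and the median of all genes was 9 under ABA and 5 under EtOH. The mean over the family was 9.88 ± 6.26 factors under ABA and 6.85 ± 5.05 under EtOH (SD over 34 genes), with a range of 0 to 19 under ABA and 0 to 16 under EtOH. At least 10 factors were counted at 17 of the 34 genes under ABA (48.1% of all genes) and at 13 under EtOH (30.3% of all genes). The SD over all genes was 6.54 under ABA and 5.39 under EtOH.

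The number of factors was higher under ABA at 27 of the 34 CPK genes (79.4%), equal at 5 and lower at 2, while 75.5% of all genes had more factors under ABA and 3.67% had fewer. At least 5 more factors were counted under ABA at 9 members (26.5%), and 24.1% of all genes differed by as much. No member had at least 5 fewer, as was true of all but 0.0364% of genes. These shares lie near those of all genes. They also move with the length of the lists: when the longer list of each factor was shortened to its best-ranked peaks, as many as the shorter list holds, 13 members had more factors under ABA, 6 had fewer and 0 had at least 5 more. Over all genes, the shortened lists gave 32.4% with more factors, 27.1% with fewer and 1.81% with at least 5 more. The order of the treatments turned round at CPK1 (10 under ABA and 11 under EtOH), CPK4 (1 and 2), CPK10 (4 and 7) and CPK12 (4 and 5).

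**Figure D1:**
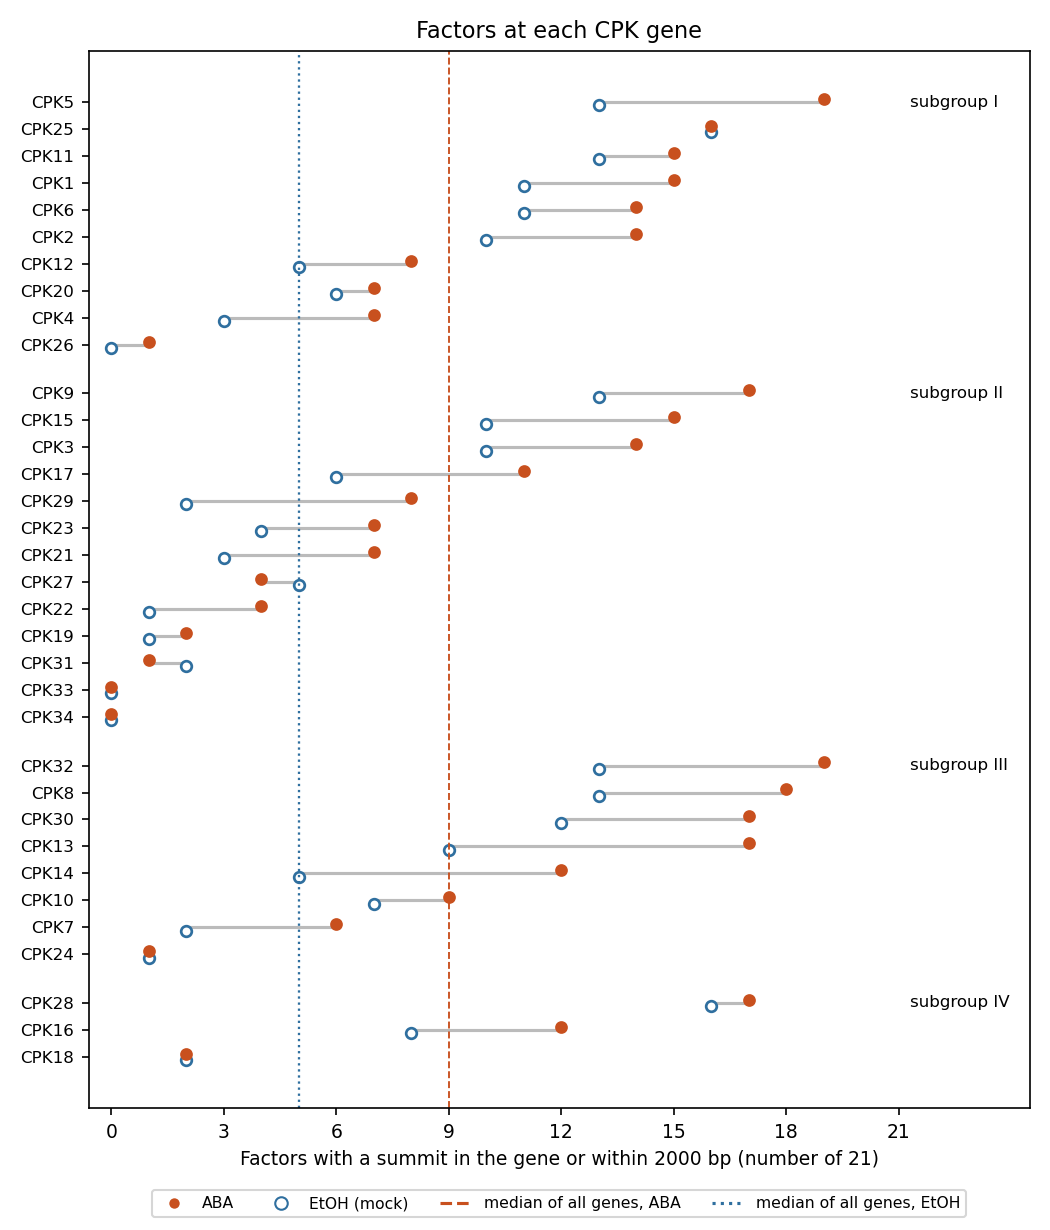
Each row is a CPK gene, ordered within subgroups I to IV by its number of factors under ABA. The horizontal axis is the number of the 21 factors with a summit in the gene or within 2000 bp, with filled circles for ABA and open circles for EtOH, and the vertical lines mark the medians of all protein-coding genes (9 under ABA and 5 under EtOH). CPK32 and CPK5 reach 19 factors under ABA, while CPK33 and CPK34 sit at 0 in both treatments.

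The subgroups had unlike medians, which are given as a description. Subgroup III (8 genes) had a median of 14.5 factors under ABA and 8 under EtOH, and 5 of its 8 genes had at least 5 more factors under ABA, where 24.1% of all genes did. The same held for 1 gene of subgroup I, 3 of subgroup II and 0 of subgroup IV. Over the whole family, 0 genes differed by as much with lists of equal length (1.81% of all genes). With summits given only to the nearest gene, 4 did (14.3% of all genes). Subgroup I (10 genes) had medians of 14 under ABA and 10.5 under EtOH, and subgroup IV (3 genes) 12 under ABA and 8 under EtOH. Subgroup II (13 genes) was lowest, with 7 under ABA and 3 under EtOH. It holds 5 genes that lie near each other on chromosome 4, CPK21, CPK22, CPK23, CPK27 and CPK31, with medians of 4 factors under ABA and 3 under EtOH, and its 8 other genes had medians of 9.5 under ABA and 4 under EtOH. Windows of neighbours shared few summits: 9 of 768 distinct summits lay within 2000 bp of 2 members, among CPK21, CPK22, CPK27 and CPK31.

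A two-sided exact sign test per gene set the factors found under ABA alone against those found under EtOH alone, with Benjamini-Hochberg adjustment over the 24128 genes that had any factor. None of the 32 CPK genes tested passed at 0.05 (0.0% of all genes passed in either direction), and the lowest adjusted p among them was 0.157, at CPK13. The test uses only factors found in 1 treatment alone. With 5 of them, all under ABA, the exact sign test gives p = 0.0625, as at CPK8. Most members had 5 or fewer and so could not pass, even unadjusted. With no adjustment 5 members passed in the direction of more factors under ABA, CPK5, CPK13, CPK14, CPK29 and CPK32, and 0 in the other, against 16.1% and 0.0207% of all genes. The factor is the unit of this test, so its p-values measure spread between factors and not between libraries, and factors that bind the same regions are not independent. The test also takes ABA alone and EtOH alone as equally likely, though the ABA list is the longer one for 19 of the 21 factors. With lists of equal length 0 CPK genes passed without adjustment, so the p-values given below do not separate the treatment from list length.

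A summit can lie nearer to another gene than to the member it is counted for. Given only to the nearest protein-coding gene, the summits left a median of 7 factors per CPK gene under ABA and 4 under EtOH, and over all genes 3 under ABA and 2 under EtOH. At 6 members, CPK15, CPK17, CPK18, CPK20, CPK24 and CPK26, every counted summit lay nearer to another gene, as it did for 17.7% of the genes with a factor. Positions are given on TAIR10, the build of the lists, as inside a gene or on its side of lower or higher coordinates, because the gene table used here holds neither strand nor exons. A site below is a run of summits in which each lies within 150 bp of the next.

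Among kinases of guard cells and the drought response, CPK13 had the largest difference in the family as counted here, 8 factors. With any overlap of a peak with the window the difference was 4 at CPK13, against 11 at CPK14 and 9 at CPK10, and with a −log10 p of at least 32 it was 6 at CPK13 and 10 at CPK5. CPK13 (AT3G51850) is known to phosphorylate the potassium channel KAT2 and to restrain light-driven opening of stomata. It had 17 factors under ABA and 9 under EtOH, and with nearest-gene counting 15 under ABA and 6 under EtOH. Found under ABA alone were ABF1, ABF4, GBF2, ANAC032, ANAC102, RD26, AT5G04760 and ZAT6, and no factor was found under EtOH alone (exact sign test, p = 0.00781, adjusted p = 0.157). GBF3, the 4 HD-ZIP factors, MYB3, MYB44, NFYB2 and NFYC2 were found in both treatments. With lists of equal length the counts were 12 under ABA and 9 under EtOH.

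Much of the difference at CPK13 lay at a single site. At 75 bp beyond its higher-coordinate end, on chromosome 3 from 19235915 to 19236025, 11 factors had a summit under ABA (ABF1, GBF2, GBF3, HB7, ANAC032, ANAC102, RD26, MYB44, AT5G04760, NFYB2 and ZAT6), against GBF3 alone under EtOH. Counted by any peak that covers the site, 17 factors were there under ABA and 3 under EtOH. The authors' fold enrichment of the 11 ABA peaks was 1.84 to 4.89, highest for NFYB2, and the best placed was that of ANAC032, within the first 17.2% of its list by −log10 p. The GBF3 peak under EtOH had a fold enrichment of 2.11 and stood at 90.7% of its list. A second site of CPK13, 1625 bp on the lower side (19230674 to 19230865), was covered by peaks of 17 factors under ABA and 9 under EtOH.

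CPK8 (AT5G19450) is known to phosphorylate the catalase CAT3 in drought. It had 18 factors under ABA and 13 under EtOH, with ABF1, ABF4, ANAC102, MYB44 and NFYC2 under ABA alone and none under EtOH alone (exact sign test, p = 0.0625, adjusted p = 0.248). Lists of equal length gave 16 under ABA and 13 under EtOH. Its 2 largest sites differed. At 121 bp beyond the higher end (chromosome 5, 6562053 to 6562267) summits of 13 factors were found under ABA and of 11 under EtOH. At 1977 bp on the lower side (6556331 to 6556394) there were 15 factors under ABA and 5 under EtOH, within 64 bp of each other. That site lies nearer to AT5G19440 and at the edge of the window, where the ANAC032 summit under ABA is at exactly 2000 bp, and a window of 1000 bp, which leaves the site out, gave CPK8 13 factors under ABA and 11 under EtOH. The peaks there were among the strongest near any CPK gene: ANAC102 under ABA ranked 23 of 4793 peaks (fold enrichment 4.22), and ANAC032 ranked 61 of 7977 under ABA and 44 of 801 under EtOH.

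CPK9 (AT3G20410) had 17 factors under ABA and 13 under EtOH, and the 4 found under ABA alone were ABF1, ANAC032, ANAC102 and MYB3. Nearly all of them met at a single site inside the gene (chromosome 3, 7116091 to 7116159), with summits of 16 factors under ABA and 13 under EtOH within 69 bp. The best placed was AT5G04760, at 3.12% of its list under ABA and at 1.77% under EtOH. Given to the nearest gene only, the counts at CPK9 stayed at 17 under ABA and 13 under EtOH, and with lists of equal length they were 13 in each treatment.

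Other ABA kinases were picked out after their values were seen. CPK4 and CPK11, close relatives known to phosphorylate ABF1 and ABF4 and to promote ABA responses, had unequal counts: CPK11 had 15 factors under ABA and 13 under EtOH, and CPK4 had 7 under ABA and 3 under EtOH. At CPK11, ABF1, MYB3, MYB44 and ZAT6 were found under ABA alone and HAT22 and ANAC102 under EtOH alone. Its site 1747 bp on the lower side (chromosome 1, 13203561 to 13203684) held summits of 15 factors under ABA and 13 under EtOH, and a window of 1000 bp, which leaves that site out, gave CPK11 2 factors in each treatment. At CPK4 a site 1649 bp on the lower side (chromosome 4, 6047783 to 6047850) held HB6, HB7, RD26, MYB44, NFYB2 and ZAT6 under ABA and NFYB2 alone under EtOH. No summit of ABF1 or ABF4 was counted at CPK4 in either treatment.

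CPK3 and CPK6, also picked out after their values were seen, act on guard-cell ion channels. They had 14 factors each under ABA, and under EtOH 10 at CPK3 and 11 at CPK6. At CPK3 the 5 bZIP factors were all present in both treatments, with a site inside the gene (chromosome 4, 12327510 to 12327686) that held 14 factors under ABA and 10 under EtOH and also touches PPT1. The best-ranked peak of any member was at CPK6: 358 bp beyond its higher end (chromosome 2, 7519963 to 7520048) HB5 under ABA ranked 14 of 9558 peaks with a fold enrichment of 3.75, and HB6 ranked 59 of 11513 under ABA and 36 of 9856 under EtOH. Summits of 10 factors lay at that site in each treatment. CPK21 and CPK23, which phosphorylate the anion channel SLAC1, had 7 factors each under ABA, and under EtOH 3 at CPK21 and 4 at CPK23. CPK12, known to dampen ABA responses, had 8 under ABA and 5 under EtOH.

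Among kinases of defence, CPK5 (AT4G35310) shared with CPK32 the highest count under ABA, while under EtOH CPK28 and CPK25 had more. CPK5 is known to phosphorylate the NADPH oxidase RBOHD in the oxidative burst. It had 19 factors under ABA and 13 under EtOH, with ABF1, HB7, ANAC032, ANAC102, MYB3 and DREB2A under ABA alone and none under EtOH alone (exact sign test, p = 0.0312, adjusted p = 0.198). It was the only member with a summit of DREB2A. Its counts with lists of equal length were 16 under ABA and 13 under EtOH.

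The 4 largest sites at CPK5 lay on either side of the gene and within it. At 139 bp beyond its higher end (chromosome 4, 16805088 to 16805210) 11 factors had a summit under ABA and 6 under EtOH, and peaks of 18 factors covered the site under ABA against 10 under EtOH. At 1899 bp on the lower side (16799673 to 16799807), nearer to TMT2, 12 factors had a summit under ABA and 7 under EtOH, and at 1746 bp on the higher side (16806729 to 16806848), nearer to AT4G35320, 10 under ABA and 5 under EtOH. Inside the gene (16801827 to 16801929) the order of the summit counts was the opposite, 4 under ABA and 8 under EtOH. Peaks of 15 factors covered that inner site under ABA and of 9 under EtOH, so ABA peaks lay over it with their summits elsewhere.

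CPK28 (AT5G66210), known to control the turnover of the immune kinase BIK1, had 17 factors under ABA and 16 under EtOH, close to the same set in both treatments. ANAC032 and ANAC102 were found under ABA alone, RD26 under EtOH alone, and the other 15 factors in both. Its main site lies inside the gene (chromosome 5, 26456223 to 26456445) and held summits of 16 factors under ABA and 15 under EtOH. A site 909 bp beyond its higher end (26460500 to 26460668), nearer to AT5G66230, held 9 factors under ABA and 4 under EtOH. CPK1, picked out after its values were seen and known for a part in defence and senescence, had 15 factors under ABA and 11 under EtOH. Its site 221 bp on the lower side (chromosome 5, 1416244 to 1416501) held 11 under ABA and 7 under EtOH.

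CPK32 (AT3G57530), CPK30 (AT1G74740) and CPK10 are known to phosphorylate NLP7, the transcription factor of the nitrate response. CPK32 had 19 factors under ABA and 13 under EtOH, with ABF1, ANAC032, ANAC102, MYB3, NFYC2 and HSFA6A under ABA alone and none under EtOH alone (exact sign test, p = 0.0312, adjusted p = 0.198). With lists of equal length the counts were 14 under ABA and 13 under EtOH. Its main site, 934 bp on the lower side (chromosome 3, 21295455 to 21295657), held summits of 15 factors under ABA and 8 under EtOH. The 8 were ABF3, GBF2, GBF3, the 4 HD-ZIP factors and NFYB2, and they were all among the 15. Near the higher-coordinate end of the gene (21299443 to 21299633), still inside it, 9 factors had a summit under ABA and 7 under EtOH. The HB6 peak there was the best placed at CPK32, at 2.63% of its list under ABA and at 3.51% under EtOH.

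CPK30 had 17 factors under ABA and 12 under EtOH, with ABF1, HB7, MYB3, HSFA6A and ZAT6 under ABA alone and none under EtOH alone (exact sign test, p = 0.0625, adjusted p = 0.248). Most of its summits lay far from the gene. A site 1090 bp on the lower side (chromosome 1, 28078833 to 28078889), nearer to AT1G74730 or QKY, held 11 factors under ABA and 10 under EtOH, and a site 1638 bp on the higher side (28084283 to 28084347), nearer to AT1G74750, held 10 under ABA and 9 under EtOH. Given to the nearest gene only, CPK30 had 9 factors under ABA and 5 under EtOH, and with lists of equal length 12 in each treatment. CPK10, picked out after its values were seen, had 9 under ABA and 7 under EtOH, with AT5G04760 and NFYB2 under EtOH alone. A site 395 bp beyond its higher end (chromosome 1, 6526461 to 6526508) was covered by peaks of 13 factors under ABA and 3 under EtOH, though summits of only 1 factor under ABA and 3 under EtOH fell on it.

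**Figure D2:**
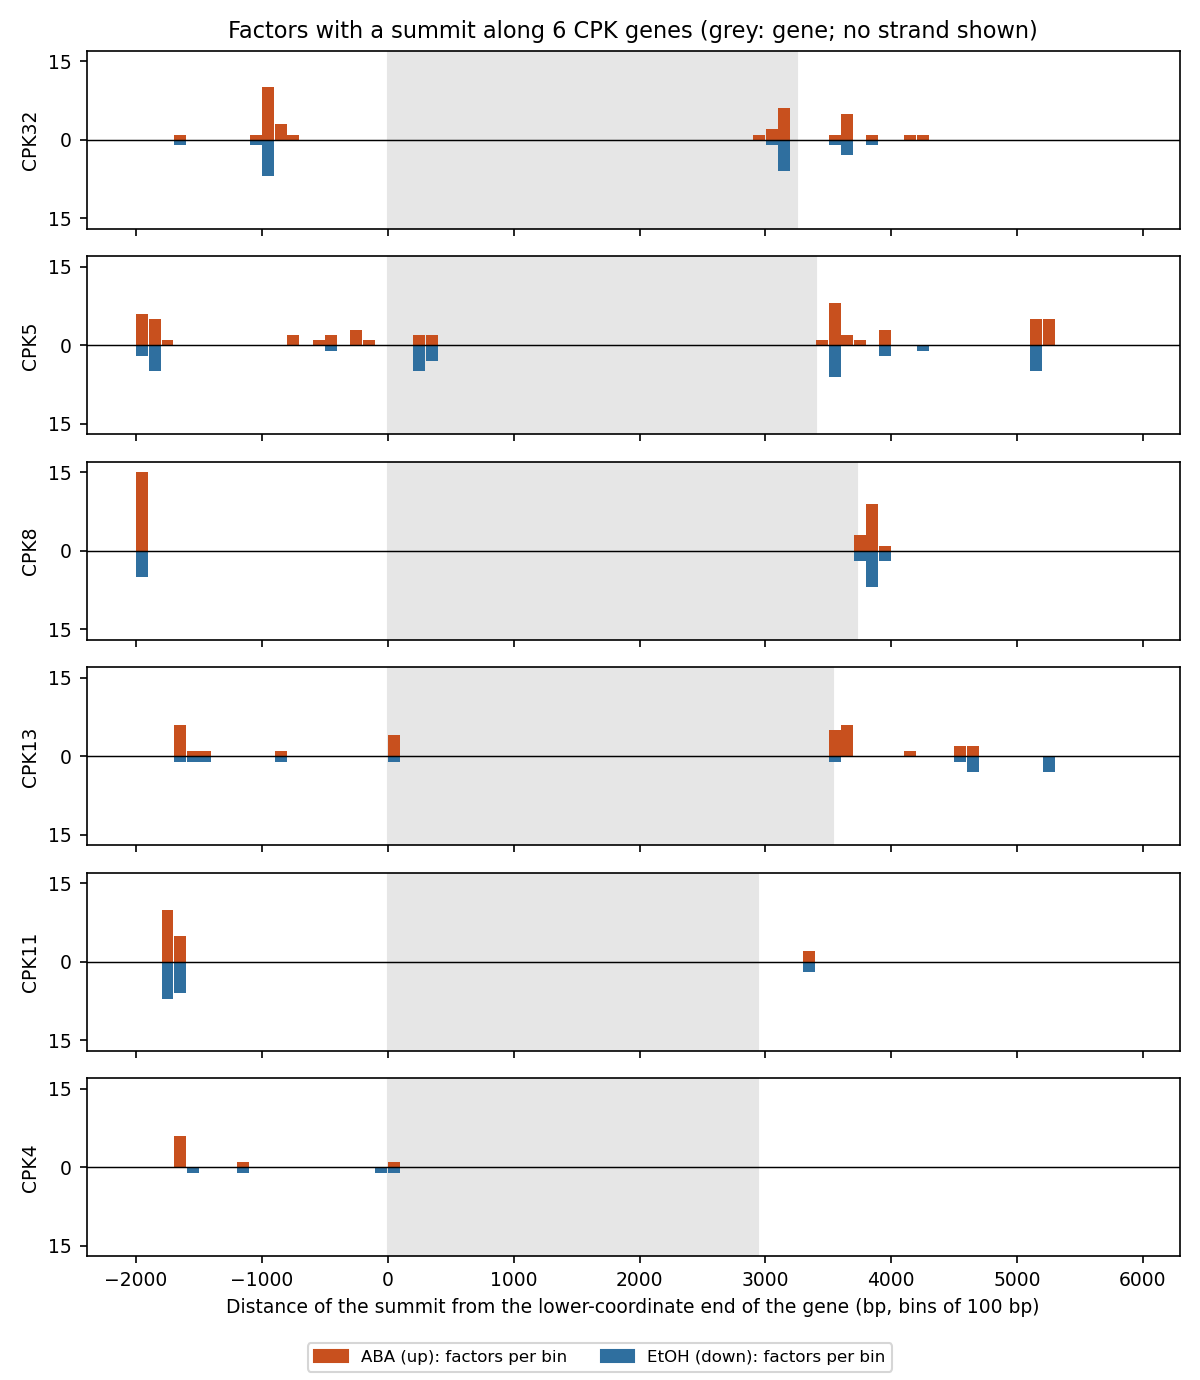
Each panel is a CPK gene, with the distance of summits from its lower-coordinate end in bp on the horizontal axis, the gene in grey, and the number of factors per bin of 100 bp upward for ABA and downward for EtOH. At CPK13 the bins just beyond the gene hold 11 factors under ABA and 1 under EtOH, while CPK11 and CPK4 have most of their summits more than 1000 bp from the gene.

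Among members with other roles, 4 also differed by at least 5 factors. CPK14 (AT2G41860) had 12 factors under ABA and 5 under EtOH, with ABF1, ABF4, HB5, HAT22, MYB3, NFYB2 and ZAT6 under ABA alone and none under EtOH alone (exact sign test, p = 0.0156, adjusted p = 0.169). A site 1616 bp on the higher side (chromosome 2, 17471667 to 17471823) held summits of 7 factors under ABA and 0 under EtOH, and peaks of 14 factors covered it under ABA against 1 under EtOH. It lies nearer to AT2G41870, and with nearest-gene counting CPK14 had 5 factors in each treatment, as it did with lists of equal length. The 7 peaks were weak in their lists, with fold enrichments of 1.77 to 2.67 and a median place at 92.1% of the list.

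CPK29 (AT1G76040), known to phosphorylate PIN auxin transporters, had 8 factors under ABA and 2 under EtOH. RD26 and NFYB2 were found in both treatments, and GBF3, HB6, HB7, HAT22, ANAC032 and ANAC102 under ABA alone (exact sign test, p = 0.0312, adjusted p = 0.198). Inside the gene (chromosome 1, 28540636 to 28540697) summits of 5 factors were found under ABA and of 2 under EtOH. With lists of equal length the counts were 5 under ABA and 2 under EtOH.

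CPK15 (AT4G21940) and CPK17 (AT5G12180) had every counted summit nearer to another gene. CPK15 had 15 factors under ABA and 10 under EtOH, with HB6, HB7, ANAC032, RD26, MYB3 and ZAT6 under ABA alone and HB5 under EtOH alone (exact sign test, p = 0.125, adjusted p = 0.331). Its site 1759 bp on the lower side (chromosome 4, 11638779 to 11639030), nearer to AT4G21926, was covered by peaks of 17 factors under ABA and 15 under EtOH, and with lists of equal length CPK15 had 13 factors under ABA and 10 under EtOH. CPK17, a kinase of pollen tube growth, had 11 factors under ABA and 6 under EtOH, with ABF3, HAT22, MYB3, MYB44 and ZAT6 under ABA alone and none under EtOH alone (exact sign test, p = 0.0625, adjusted p = 0.248). All of them had a summit 1637 bp on the higher side (chromosome 5, 3941184 to 3941299), nearer to AT5G12190, and none remained with a window of 1000 bp. CPK17 had 7 factors under ABA and 6 under EtOH with lists of equal length.

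Few members had as many or more factors under EtOH. CPK25, whose EF hands are degenerate, was picked out after its values were seen: it had 16 factors in each treatment, of which 15 were shared, with ANAC032 under ABA alone and FBH3 under EtOH alone. They met 260 bp on the lower side (chromosome 2, 15066120 to 15066464), where HB5 ranked 64 of 9558 peaks under ABA and 77 of 10026 under EtOH, and HB6 ranked 66 of 11513 under ABA and 61 of 9856 under EtOH. Part of these summits lay nearer to AT2G35880, and with nearest-gene counting CPK25 had 8 factors under ABA and 11 under EtOH. The 2 members with fewer factors under ABA were CPK27, with 4 under ABA and 5 under EtOH, and CPK31, with 1 under ABA and 2 under EtOH. HB5 was found under EtOH alone at both, and they share summits of HB5 and HB6. CPK18 had 2 factors in each treatment and CPK24 had 1.

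CPK33, known from guard cells and from phosphorylation of the flowering factor FD, and the pollen kinase CPK34 had no summit of any factor in either treatment, as did 12.1% of all genes. CPK19 had 2 factors under ABA and 1 under EtOH, and CPK26 had 1 under ABA and 0 under EtOH. Of the members not described above, CPK2 had 14 factors under ABA and 10 under EtOH, CPK16 12 under ABA and 8 under EtOH, CPK20 7 under ABA and 6 under EtOH, CPK7 6 under ABA and 2 under EtOH, and CPK22 4 under ABA and 1 under EtOH.

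**Figure D3:**
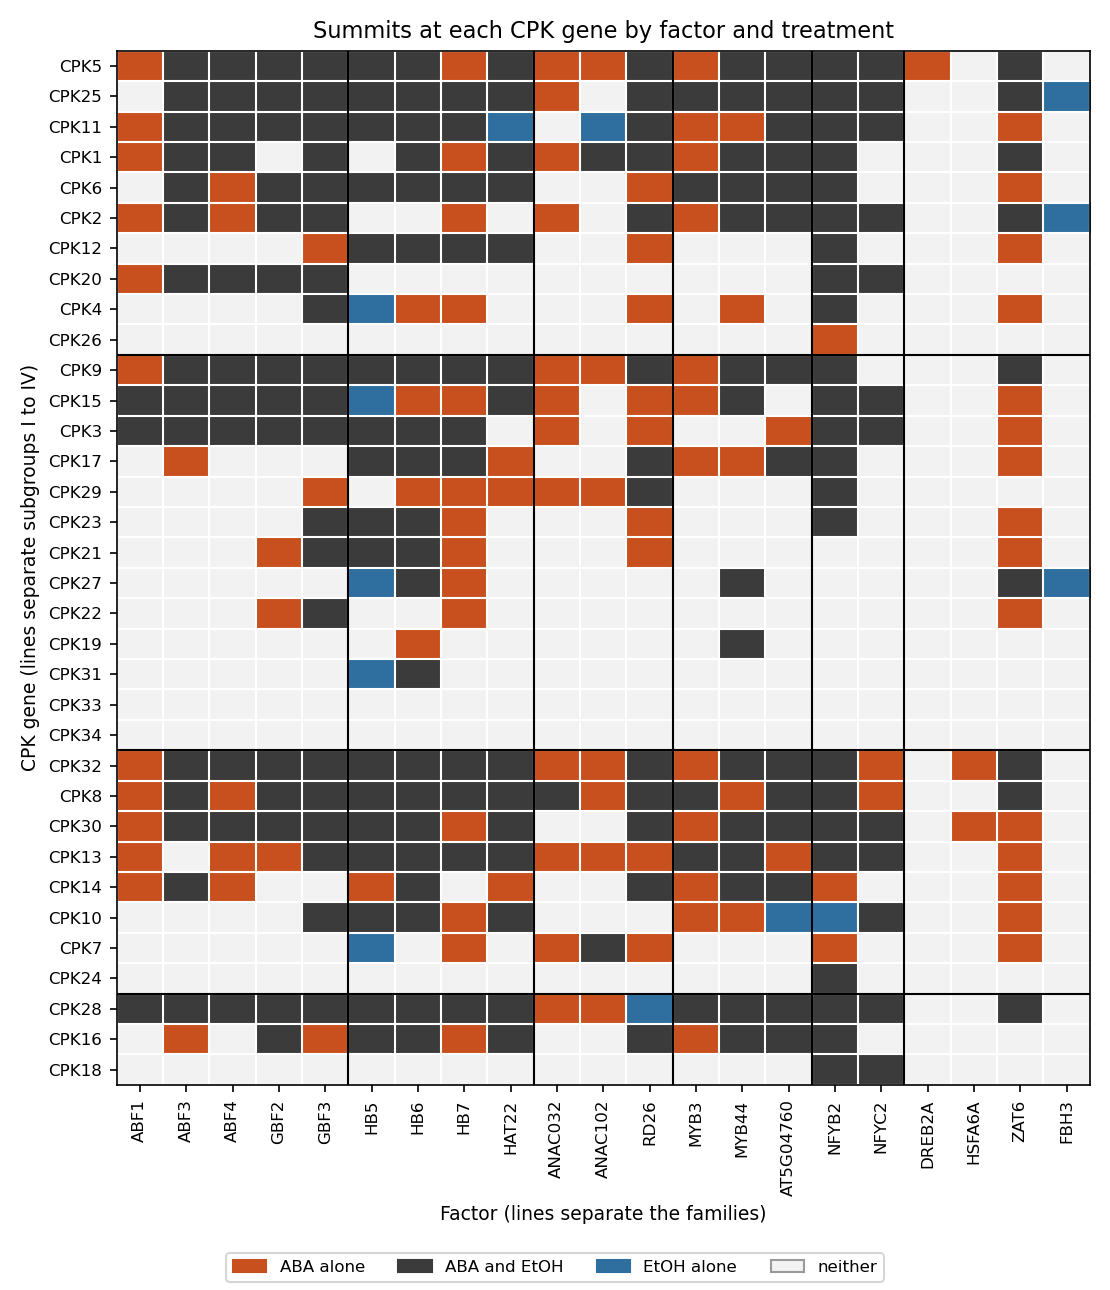
Rows are the 34 CPK genes by subgroup, columns the 21 factors by family, and the colour of a cell says whether a summit was found under ABA alone, in both treatments, under EtOH alone or in neither. Of the cells with a summit, 116 are ABA alone, 220 both and 13 EtOH alone, and the columns of ABF1, HB7, ANAC032, MYB3 and ZAT6 hold many cells of ABA alone.

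Over the family 336 combinations of a gene and a factor had a summit under ABA and 233 under EtOH. Of these, 220 (63.0%) were found in both treatments, 116 (33.2%) under ABA alone and 13 (3.72%) under EtOH alone, close to the shares over all genes, 64.5% in both, 32.3% under ABA alone and 3.19% under EtOH alone. Where a factor had a summit at a member in both treatments, the positions were close: of 294 EtOH summits, 243 (82.7%) lay within 50 bp of an ABA summit of the same factor, with a median shift of 17 bp. The summits near members, 470 under ABA and 307 under EtOH, were of middling strength, with a median place of 46.6% of the list under ABA and 47.7% under EtOH. Inside the member lay 26.8% of them under ABA and 28.0% under EtOH.

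The summits of different factors tended to fall on the same sites. They formed 90 sites at 32 members, of which 19 held a single factor and 23 held at least 10 factors with a median span of 123 bp. The same shares over the genome are not given here, so these counts are a description and not a trait of the CPK genes. Sites were made per member, so those within reach of 2 neighbours, among CPK21, CPK22, CPK27 and CPK31, were counted for each. Of those 23 sites, 6 lay inside the gene. The number of factors with a peak over the site was at least 10 higher under ABA at 5 of the 90 sites (5.56%), against 2.48% of 38806 sites over the genome. The 90 sites were cut at each member's window and counted per member, so these shares may rest on unlike units. These 5 sites lie at CPK8, CPK10, CPK13 and CPK14, 2 of them at CPK13. Sites close together can lie under the same peaks, so they are not separate events and these shares count some peaks more than once. The site at the end of CPK13 had the largest difference of the 90, 14 factors, and 0.183% of all sites differed by as much.

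Lists of equal length, an alternative added after seeing the data for the sites, left part of these differences in place. At 9 of the 90 sites (10.0%) at least 5 more factors had a peak over the site under ABA, and at 0 at least 5 fewer, against 4.71% and 1.37% of the sites over the genome. The limit on units given above holds for these shares too. The 9 sites lie at CPK5, CPK8, CPK10, CPK13, CPK14 and CPK32. They include neighbouring sites at CPK13 and at CPK32, so they are not 9 separate events. At CPK32 the sites with median summits at 21294793 and 21295523 each had peaks of 14 factors under ABA and 9 under EtOH. At the site at the end of CPK13, 12 factors remained under ABA and 3 under EtOH, a difference of 9, which 0.582% of all sites reached. The site on the lower side of CPK8 kept 12 under ABA and 6 under EtOH, the lower site of CPK32 14 under ABA and 9 under EtOH, and that of CPK5 14 under ABA and 7 under EtOH. At the inner sites of CPK9, CPK28 and CPK3 and at the site of CPK25 the counts were then equal in the 2 treatments.

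By factor, the widest differences were those of factors whose lists are much longer under ABA. HB7 had a summit at 25 CPK genes under ABA and 11 under EtOH, ZAT6 at 24 under ABA and 9 under EtOH, MYB3 at 17 under ABA and 5 under EtOH, ANAC032 at 13 under ABA and 1 under EtOH, and ABF1 at 14 under ABA and 3 under EtOH. The HB7 list held 13565 peaks under ABA and 3645 under EtOH, and that of ANAC032 7977 under ABA and 801 under EtOH. These differences were 0 to 2 genes with lists of equal length, where HB7 was at 12 CPK genes under ABA, 1 more than under EtOH, ZAT6 at 11 (2 more), MYB3 at 7 (2 more), ABF1 at 4 (1 more) and ANAC032 at 1 (0 more). In all, 19 factors were at more CPK genes under ABA. HB5, an HD-ZIP protein, was at 18 under ABA and 22 under EtOH and accounted for 5 of the 13 combinations found under EtOH alone, and the bHLH protein FBH3 was at 0 under ABA and 3 under EtOH.

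**Figure D4:**
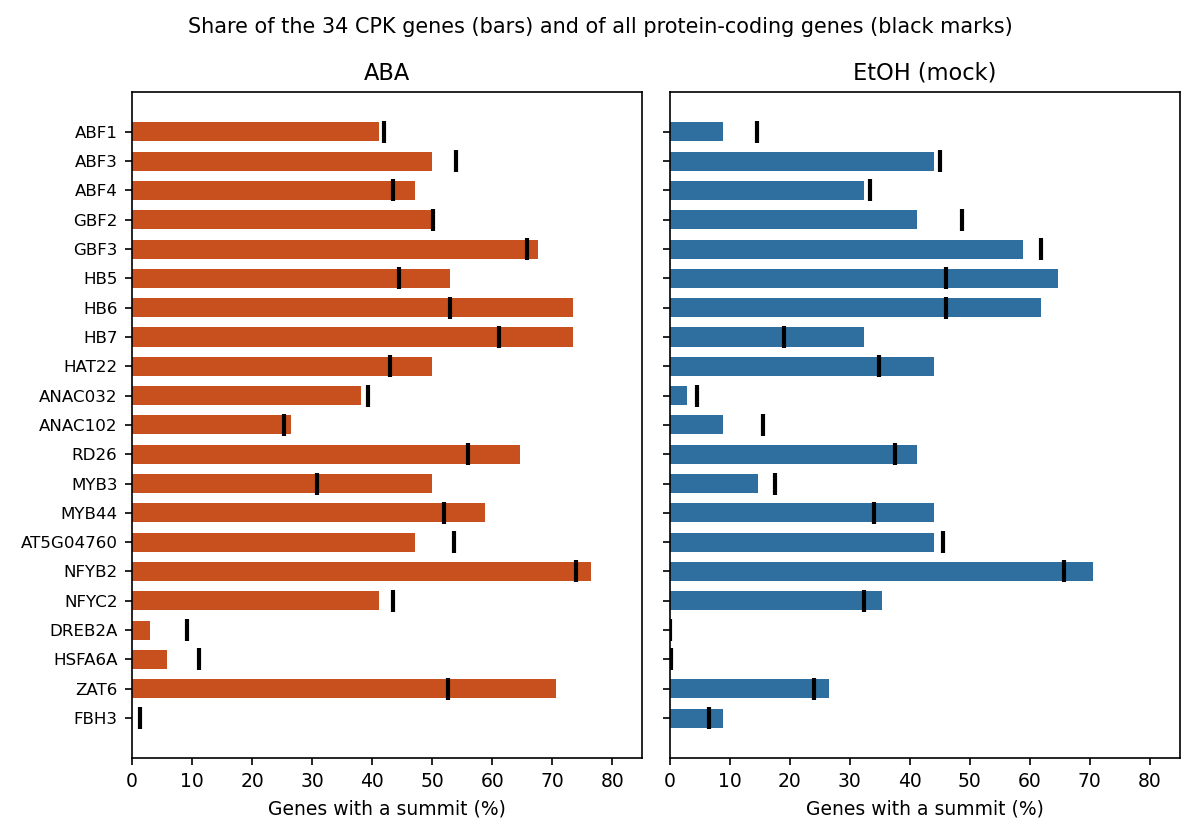
Bars give the percent of the 34 CPK genes with a summit of each factor, in the left panel under ABA and in the right panel under EtOH, and black marks give the percent of all 27444 protein-coding genes. The bars pass the marks for 12 factors under ABA and 10 under EtOH, with wide gaps for HB6, MYB3 and ZAT6 under ABA and for HB5 under EtOH.

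The share of CPK genes with a factor was above the share of all genes for 12 factors under ABA and for 10 under EtOH. The HD-ZIP factors were above it in both treatments. HB6 was at 73.5% of CPK genes under ABA (53.0% of all genes) and at 61.8% under EtOH (46.0%), HB5 at 52.9% under ABA (44.5%) and 64.7% under EtOH (46.0%), HB7 at 73.5% under ABA (61.1%) and 32.4% under EtOH (19.1%), and HAT22 at 17 of the 34 genes under ABA (43.0% of all genes) and 44.1% under EtOH (34.9%). MYB3 was at 17 of the 34 genes under ABA (30.8% of all genes) and 14.7% under EtOH (17.5%), and MYB44 at 58.8% under ABA (52.0%) and 44.1% under EtOH (9342 of the 27444 genes), while AT5G04760 was at 47.1% under ABA (53.6%) and 44.1% under EtOH (45.5%). ZAT6 was at 70.6% under ABA (52.6%) and 26.5% under EtOH (24.0%). With a window of 1000 bp MYB3 was at 8 CPK genes under ABA, HB6 at 18 and ZAT6 at 19. Nearest-gene counting gave 9, 18 and 19, and a −log10 p of at least 32 gave 3, 18 and 14. Shares of all genes per factor with these settings are not given here. The shares above carry no test, and the 34 genes limit how finely they can be read.

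The bZIP factors lay closer to all genes or below them. ABF1 was at 41.2% of CPK genes under ABA (41.9% of all genes) and 8.82% under EtOH (14.6%), ABF3 at 17 of the 34 genes under ABA (54.0%) and 44.1% under EtOH (45.1%), and ABF4 at 47.1% under ABA (43.4%) and 32.4% under EtOH (33.4%). GBF2 was at 17 of the 34 genes under ABA (50.1% of all genes) and 41.2% under EtOH (48.7%), and GBF3 at 67.6% under ABA (65.8%) and 58.8% under EtOH (61.8%). Of the NAC factors, RD26 was at 64.7% under ABA (55.9%) and 41.2% under EtOH (37.5%), ANAC032 at 38.2% under ABA (39.3%) and 2.94% under EtOH (4.58%), and ANAC102 at 26.5% under ABA (25.3%) and 8.82% under EtOH (15.5%). The NF-Y subunit NFYB2 was the factor at most CPK genes, 76.5% under ABA (74.0%) and 70.6% under EtOH (65.7%), and NFYC2 was at 41.2% under ABA (43.4%) and 35.3% under EtOH (32.4%). DREB2A and HSFA6A, whose EtOH lists are very short, were at 1 and 2 CPK genes under ABA (9.14% and 11.1% of all genes) and at 0 under EtOH (0.0875% and 0.27%). FBH3 was at 0 under ABA (1.24% of all genes) and at 8.82% under EtOH (6.5%).

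Whole families of factors met at part of the members. All 5 bZIP factors were at 11 CPK genes under ABA (32.4%, where 9335 of the 27444 genes had them all) and at 3 under EtOH (8.82%, against 13.3% of all genes), both below the share of all genes. All 3 MYB factors were at 15 CPK genes under ABA (44.1%, against 25.8% of all genes) and at 3 under EtOH (8.82%, against 13.4%). The count under ABA rests in part on MYB3, whose own count fell with the narrower settings given above. All 4 HD-ZIP factors were at 13 under ABA (33.2% of all genes) and 9 under EtOH (16.5% of all genes), the 9 being CPK6, CPK8, CPK9, CPK11, CPK12, CPK13, CPK25, CPK28 and CPK32. All 3 NAC factors were at 8 CPK genes under ABA (22.6% of all genes) and at 0 under EtOH (4.11% of all genes), and the ANAC032 list under EtOH holds only 801 peaks. Both NF-Y subunits were at 13 under ABA (42.8% of all genes) and 12 under EtOH (31.9% of all genes).

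Close relatives within the family often had unlike counts. In 10 pairs of related members, chosen after the values were seen, the factors under ABA at the gene with fewer were all found at its partner as well for CPK4 and CPK11 (7 shared), CPK5 and CPK6 (14 shared), CPK7 and CPK8 (6 shared), CPK10 and CPK30 (9 shared), and CPK14 and CPK32 (12 shared). CPK1 and CPK2 shared 12 factors under ABA and 7 under EtOH, and CPK21 and CPK23 shared 6 under ABA and 3 under EtOH. CPK16 had 12 factors under ABA and its relative CPK18 had 2, with 1 shared. CPK9 had 17 under ABA where CPK33 had 0, and CPK17 had 11 where CPK34 had 0. Factors with long lists are at most genes, so shared factors are a description and not a likeness of the pairs beyond other genes, and no summit was counted for both genes of a pair.

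**Figure D5:**
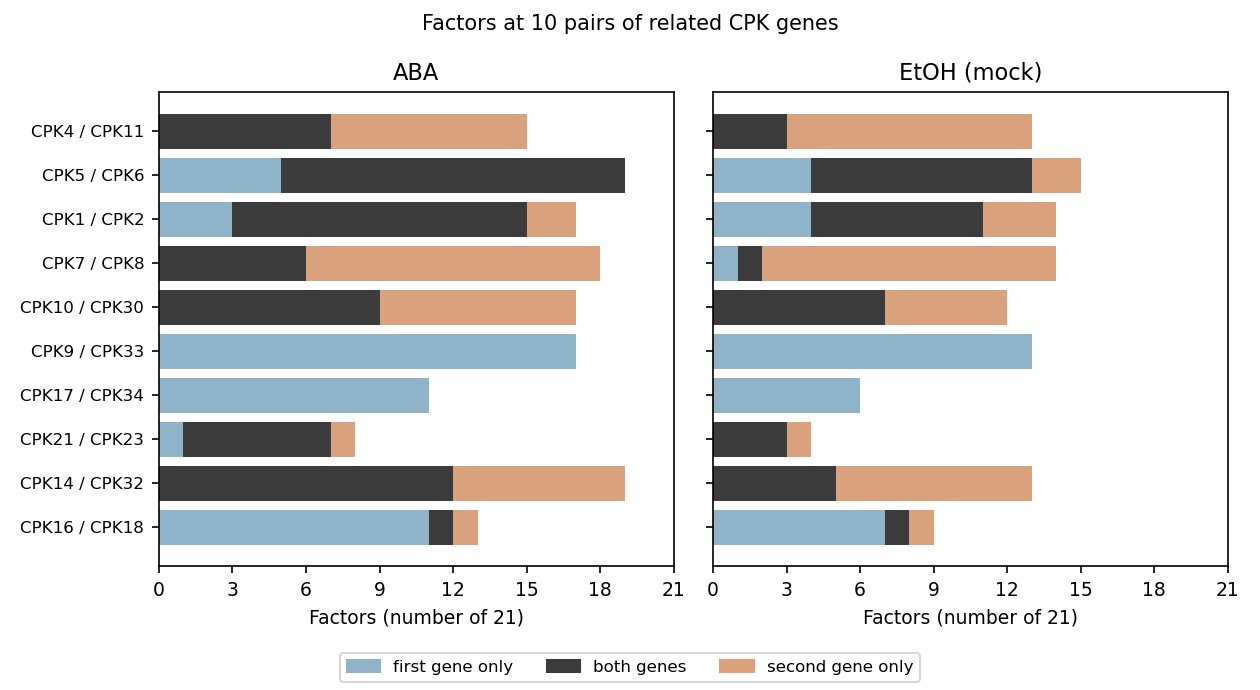
Each bar is a pair of related CPK genes, and its parts give the number of the 21 factors at the first gene only, at both and at the second gene only, with ABA on the left and EtOH on the right. Under ABA 5 pairs show nesting, where the gene with fewer factors has none of its own.

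Lists of genes around the CPKs had higher medians than the family. In a list of 12 kinases related to CPKs (the CRK group, phosphoenolpyruvate carboxylase kinases and their relatives), the median was 16.5 factors under ABA and 12 under EtOH, 11 had more factors under ABA and 1 had fewer, where 75.5% and 3.67% of all genes did. PPCK2, a kinase of phosphoenolpyruvate carboxylase, had 20 factors under ABA and 13 under EtOH, CRK2 had 18 under ABA and 14 under EtOH, PPCK1 18 under ABA and 16 under EtOH, and PEPKR1 18 under ABA and 17 under EtOH. At least 5 more factors under ABA were counted at 5 of the 12 (24.1% of all genes), PPCK2, CRK4 (12 under ABA and 7 under EtOH), CRK7 (17 under ABA and 10 under EtOH), CRK8 (17 under ABA and 12 under EtOH) and PEPKR2 (8 under ABA and 3 under EtOH). CRK6 was the member with fewer, 9 under ABA and 10 under EtOH.

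Of 15 documented CPK substrates, 13 had more factors under ABA (86.7%, against 75.5% of all genes) and 2 had fewer, with medians of 17 under ABA and 12 under EtOH. The substrates ABF1 and ABF4 were left out of this list because they are tagged in the series. The NADPH oxidase RBOHF had 20 factors under ABA and 16 under EtOH, WRKY8 19 under ABA and 14 under EtOH, the anion channel SLAH3 18 under ABA and 15 under EtOH, NLP7 18 under ABA and 11 under EtOH, and WRKY28 18 under ABA and 12 under EtOH. At least 5 more factors under ABA were counted at 7 of them (46.7%, against 24.1% of all genes), NLP7, WRKY8, WRKY28, WRKY48 (17 under ABA and 10 under EtOH), BIK1 (14 under ABA and 8 under EtOH), the senescence regulator ORE1 (14 under ABA and 9 under EtOH) and DI19 (9 under ABA and 4 under EtOH). The 2 with fewer were the guard-cell anion channel SLAC1, with 4 under ABA and 5 under EtOH, and the catalase CAT3, with 17 under ABA and 18 under EtOH. Counts with lists of equal length, where 1.81% of all genes had at least 5 more, are not given here for the substrates or the related kinases.

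The limits of the window were narrow for some members: 28 ABA summits and 8 EtOH summits lay within the last 100 bp inside it, at 5 and 3 members, and 23 ABA and 13 EtOH summits in the first 100 bp outside it. No tagged factor's own gene lay within reach of a member, the closest being AT5G04760 at 44.4 kb from CPK1.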

How the data were processed

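Peak lists of 21 YPet-tagged factors from ABA- and ethanol-treated seedlings were used as deposited by the authors, 1 per factor and treatment. Every peak is named RepAll, read here as a call on pooled replicates, and the list names give the −log10 p of 16 from which peaks were kept. The lists of GBF3 under ABA (17.98) and NFYB2 under ABA (19.25) and EtOH (17.58) start higher. MACS2 2.0.10, Bowtie 0.12.7 and, as the build, TAIR10 are named in the submitters' processing notes, and the step of each, and the lists for which the Col-0 libraries served as control, are not given in the sources used here. Each peak's fold enrichment (a ratio over background) and −log10 p are the authors' deposited values and served for ranks, filters and descriptions inside a single list. The q-value column holds -1 throughout and was not used. Other deposited columns used were the peak and summit positions, which the authors give in bp.

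Genes came from an NCBI table of assembly TAIR10.1, for names and for which genes lie beside a summit. As a check, the share of all summits inside genes was lowest with no shift (33.9%) and rose to 37.5% and 37.4% with shifts of 100 bp to either side. Of the 34 members, 29 matched by symbol and 5 by synonym. The table has no strand and no sequence was used, so the planned motif search was not run. Counts, exact sign tests and figures were made in Python 3.11.15 with pandas 2.3.3, numpy 2.4.6, SciPy 1.17.1 and matplotlib 3.10.9. The sign test was checked on simulated data with independent factors, equal rates in both treatments, and changed genes that gained every factor. That check does not cover factors that bind the same regions or lists of unequal length.

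The members and lists were chosen with earlier results of these data known. All 34 members are given by counts. Described in detail are the 5 with most factors under ABA (ties included), those with a net difference of at least 5 factors and those with none, and of each related list up to 4 genes with most factors (ties included) and those with a net difference of at least 5. Members outside this rule that are described with their sites are named as picked out after their values were seen. CRK6, SLAC1 and CAT3 also lie outside it and are named for having fewer factors under ABA. Alternatives covered the window, nearest-gene assignment, a stricter −log10 p of 32, equal list length, any overlap, wide peaks, short lists and neighbouring genes.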

Additional observations from a re-analysis of the deposited data

How the results depend on the processing

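Counts over the family moved with list length, with the reach of a summit and with the −log10 p required. With lists of equal length, 13 CPK genes had more factors under ABA (27 as reported), 6 had fewer (2 as reported), 0 had at least 5 more (9 as reported), and the median under ABA was 5.5 (10 as reported). Over all genes, those lists gave 32.4% with more, 27.1% with fewer, 1.81% with at least 5 more, and a median of 5 under ABA. With summits inside the gene only, 15 had more and 1 fewer, 2 had at least 5 more, 4 under ABA and 3 under EtOH (17 and 13 as reported) had at least 10 factors, and the median was 1 in each treatment. Of all genes, 31.6% then had more, 5.86% fewer and 4.5% at least 5 more. At least 10 factors were then at 7.97% of all genes under ABA and 4.27% under EtOH, and the medians were 0. A window of 1000 bp gave 11 CPK genes with at least 10 factors under ABA, 4 with at least 5 more and 4 with fewer. The shares of all genes with that window were 36.8%, 19.7% and 4.19%. Nearest-gene counting gave 11 CPK genes with at least 10 under ABA (26.7% of all genes) and 4 with at least 5 more (14.3% of all genes). Peaks with a −log10 p of at least 32 gave medians of 5 under ABA and 3 under EtOH, where all genes had 4 and 2. With these peaks 4 CPK genes had at least 10 factors under EtOH (10.9% of all genes) and 0 had fewer under ABA (3.02% of all genes). CPK genes with fewer under ABA were also 0 without the 5 neighbouring genes (3.67% of all genes). They were 1 without DREB2A, HSFA6A and FBH3 (3.65% of all genes). No CPK gene passed the adjusted sign test in any setting, and 0 to 5 passed unadjusted. Genes with 5 or fewer factors found in 1 treatment alone could not pass in any setting.

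Differences turned round at some genes, sites and factors, given here as ABA minus EtOH. With lists of equal length these were CPK1 (-1), CPK10 (-3), CPK12 (-1), CPK4 (-1), HAT22 (-1 CPK genes), and the sites at CPK1 with its median summit at 1414702 (-1), at CPK32 at 21299592 (-2) and at CPK8 at 6562178 (-1). With a window of 1000 bp they were CPK10 (-2) and CPK4 (-1), with summits inside the gene CPK5 (-4), ABF3 (-1) and NFYC2 (-1), and with a −log10 p of at least 32 CPK27 (1) and GBF2 (-1). The cause was not tested beyond each setting's own construction. Of 72 counts and medians 50 stayed within 1.5 times, and of 301 differences at single genes 245 moved by at most 2 factors, 48 moved further and 8 turned round. Of 147 differences per factor 101 moved by at most 2 genes, 42 moved further and 4 turned round, and of 26 sites set against lists of equal length 6 moved by at most 2 factors, 17 moved further and 3 turned round.

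No paired analysis was possible because each list pools the replicates of 1 factor and treatment, and for the same reason leaving out a replicate was not done. Read depth is unknown, and its part in the length of a list cannot be told apart from that of the treatment.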
